A study of Aedes aegypti with 33 samples.

Results

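Aag2 cells held in serum-free L-15 (Leibovitz's medium without fetal bovine serum, FBS) for 72 h, with or without 10 µM heme, were the 6 libraries described here, of 33 in the series, chosen by the labels that give the cell line, medium, time and heme dose. Aag2 is a cultured line of the yellow fever mosquito, Aedes aegypti, that grew out of embryos, so the values are those of 1 line. The 10 µM group held 3 libraries of cells in serum-free L-15 with 10 µM heme, and the 0 µM group held 3 libraries of cells in the same serum-free medium with no heme. A further 3 libraries came from Aag2 cells in L-15 with 10% FBS, the regular growth medium, and are given beside the other 2 groups because they shared a fit with them. The cells compared had therefore all gone without serum for 72 h, and the comparison asked which genes changed when heme alone was put back. The study used it to look for membrane proteins that move heme and are regulated at the level of their transcripts. The other 3 experiments in the series used Aag2 cells in Schneider's Drosophila medium and A20 cells, another line of the same mosquito.

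Heme is iron held in a porphyrin ring. It is the cofactor of hemoglobin, cytochromes and catalases, and free heme damages lipids and proteins by oxidation. A female mosquito takes up large amounts of heme when it digests the hemoglobin of a blood meal, and its cells make heme from glycine and succinyl-CoA through aminolevulinic acid and porphobilinogen. Cells limit free heme by moving it across membranes, by binding it and by raising enzymes that deal with oxidants and conjugate reactive compounds, among them glutathione, whose sulfur comes from cysteine.

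The 3 libraries with 10 µM heme held 28021787, 22860764 and 23410585 counts, against 38002762, 30253999 and 33885584 counts with 0 µM heme and 24299140 to 27961618 counts with FBS. The 10 most abundant genes took 8.47% to 8.93% of the counts with 10 µM heme and 7.18% to 7.30% with 0 µM heme. As a check of the cell line, 109 genes with at least 20 CPM (counts scaled to a library total of 1000000) in every Aag2 library grown in Schneider's medium with FBS and under 1 CPM in every A20 library grown in FBS were read in the L-15 libraries. They summed to 6713 to 6838 CPM with 10 µM heme, 8738 to 8832 CPM with 0 µM heme and 9194 to 9724 CPM with FBS, against 24.3 to 26.8 CPM in A20, and each of the 109 reached 1 CPM in every L-15 library. The 43 genes chosen the opposite way, as A20 markers, summed to 78.7 to 88.2 CPM with 10 µM heme, 35.8 to 38.2 CPM with 0 µM heme and 24.0 to 26.1 CPM with FBS, against 5427 to 6653 CPM in A20. The part of these A20 markers in the results was not tested.

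Heme changed the transcripts of a large share of genes, and the 2 directions had different shapes. Of 13990 genes tested, 2518 passed the study's threshold, an adjusted p (false discovery rate, FDR) under 0.0001, and 1137 of them (8.13% of the genes tested) were higher and 1381 (9.87%) were lower with 10 µM heme. The count depended on the test and on single libraries. With edgeR's exact test 4294 genes passed the same threshold here. The study reports fewer by that test for this comparison, from fewer transcripts taken as expressed. The quasi-likelihood test gave 1492 to 1577 without 10 µM replicate 2 or 3 or any 1 of the 0 µM replicates. In each of the 2518 the 3 libraries with heme lay on 1 side of the 3 without, which was also true of 66.7% of all genes tested. The genes that rose changed more: 762 (5.45%) rose more than 2-fold, 315 more than 4-fold and 38 more than 16-fold, while 253 (1.81%) fell more than 2-fold, 36 more than 4-fold and 1 more than 16-fold. The median change of a called gene was 2.57-fold upward and 1.56-fold downward. The genes called higher had a median level of 15.8 CPM over the 6 libraries, against 91.0 CPM for those called lower. The median log2 fold change of all genes tested was 0.02, so a change is given relative to the typical gene. Scaling by library size alone raised the log2 fold changes by a median of 0.14 and moved the split to 1520 genes higher and 820 lower. A lower share of a transcript in bulk RNA can come from fewer cells that make it or from less of it per cell, and these libraries cannot tell them apart.

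The gene lists that follow draw their members from a shortened copy of a sheet that the study made for the experiment in Schneider's medium. A gene missing from a list may still be described in the study's full sheet, and below "sheet" and "annotated" mean the copy alone. The copy held 1547 genes, 773 with a described function. Genes in it are not a neutral sample: 5.30% of them were higher and 27.1% lower, with a median log2 fold change of -0.24, against 8.13%, 9.87% and 0.02 for all genes tested. A list's count is read against both sets of shares.

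**Figure D1:**
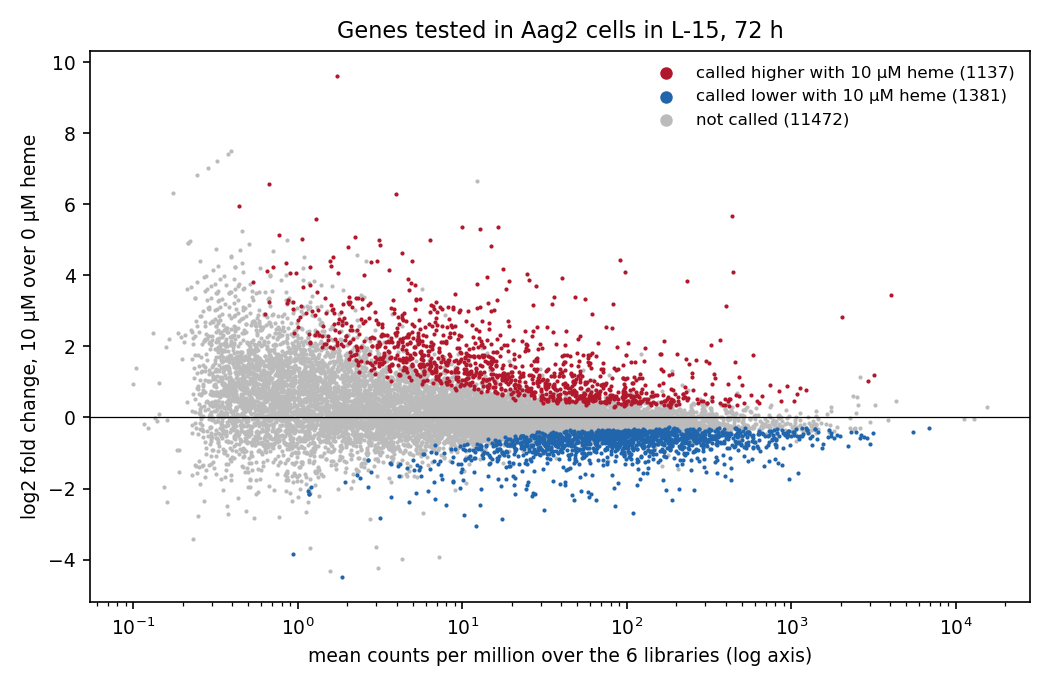
Mean level (CPM over the 6 libraries, log axis) against the log2 fold change of 10 µM over 0 µM heme for the 13990 genes tested, 1 point per gene. The 1137 genes called higher reach far above the axis at low and middle levels, and the 1381 called lower lie close beneath it and mostly at high levels.

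The summed level of scarce transcripts was higher with heme, genes too low to be tested included. When the genes were grouped by their mean level in Schneider's medium with FBS (Aag2 cells, 72 h), libraries that the comparison does not use, the 2270 genes with no count there summed to 94.9, 106 and 107 CPM in the 3 L-15 libraries with 10 µM heme, against 30.3, 28.0 and 35.2 CPM with 0 µM heme. These are transcripts that the cells hardly made in serum, and their sum was 3.29 times as high with heme. The ratio was 2.60 for the 2978 genes at up to 0.1 CPM, 2.07 for the 3457 genes at 0.1 to 1 CPM and 1.39 for the 4102 genes at 1 to 10 CPM. It came to 1.05 for the 5004 genes at 10 to 100 CPM, 0.956 for the 1755 genes at 100 to 1000 CPM and 0.981 for the 146 genes above 1000 CPM. The libraries of the 2 groups did not overlap in any of these 7 sums, and the exact two-sided permutation p of each could not go below 0.1 with 3 libraries against 3. The level with FBS lay below that with 0 µM heme in each of the 4 lowest groups of genes, at 17.1 to 20.3 CPM for the genes with no count in serum. A rise of scarce transcripts also appeared in Schneider's medium, where the ratios for the 4 lowest groups were 1.49, 1.96, 1.84 and 1.40. Among the genes tested, the share called higher was 7.30% at 0.1 to 1 CPM, 10.7% at 1 to 10 CPM, 7.53% at 10 to 100 CPM and 6.44% at 100 to 1000 CPM. It was 2.05% above 1000 CPM, 4.20% at up to 0.1 CPM and 8.70% of the 23 genes tested with no count in serum. The share called lower was 0.304%, 2.01%, 13.7% and 30.9% over the 4 groups from 0.1 to 1000 CPM. It was 43.2% above 1000 CPM and 0.560% at up to 0.1 CPM.

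**Figure D2:**
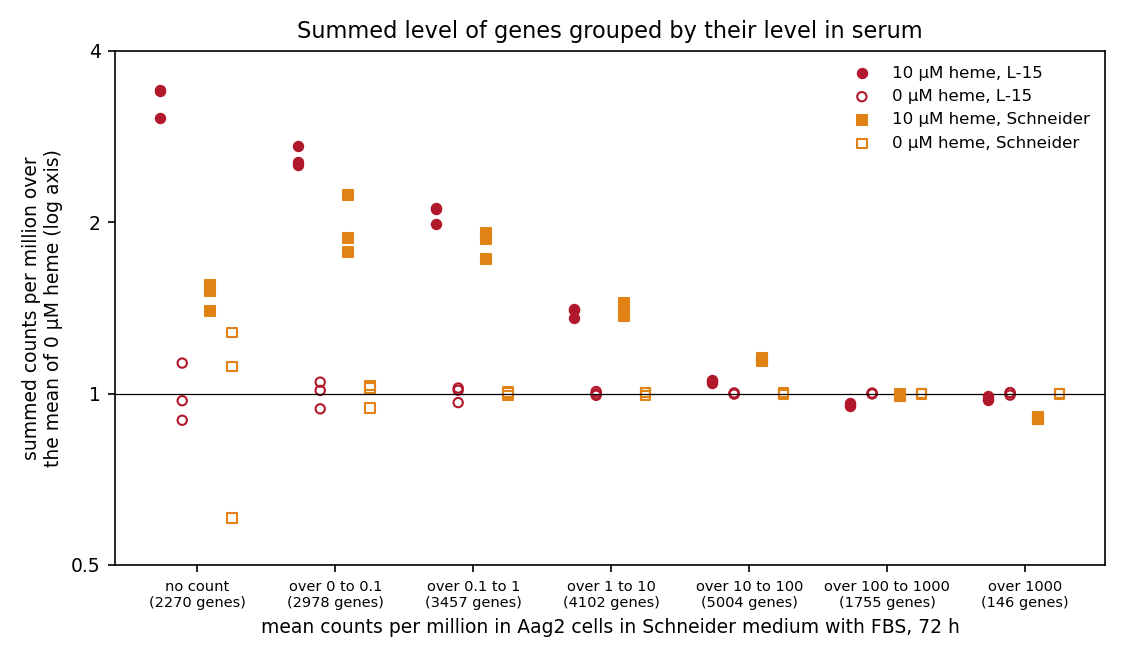
Summed CPM of genes grouped by their mean level in Schneider's medium with FBS (x axis, Aag2 cells), divided by the mean sum of the 0 µM libraries of the same medium (y axis, log), with 1 point per library, filled for 10 µM and open for 0 µM heme. The L-15 libraries with heme stand about 3.29 times above those without for genes with no count in serum and sink to 0.981 for the most abundant genes.

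More genes also had at least 1 count with heme although these libraries were the shallower ones. The 3 libraries with 10 µM heme detected 17059, 17032 and 17042 of the 19712 genes in the table, against 16340, 16193 and 16323 with 0 µM heme and 15616 to 15850 with FBS. After every library was thinned at random to the 22860764 counts of the smallest, the numbers were 16927 to 17032 with 10 µM heme, 15995 to 16047 with 0 µM heme and 15573 to 15712 with FBS. These values move with the low-level rises named next, and the part of such a general shift in any one of them was not tested.

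Among genes that averaged 10 CPM or more, the largest rise was that of AAEL008467, a cysteine synthase, an enzyme that builds cysteine from serine or a derivative of it and a sulfur donor. Its level was 756, 854 and 953 CPM in the 3 libraries with 10 µM heme, against 16.8, 15.6 and 18.2 CPM with 0 µM heme and 2.68, 2.36 and 2.20 CPM with FBS. The groups lay far apart and the gene rose 50.7-fold (log2 fold change 5.66 ± 0.099 SE, adjusted p = 2.65e-11). AAEL006113, a cystinosin, which in vertebrates carries cystine out of the lysosome, rose as well, with 139.7, 159 and 157 CPM with 10 µM heme against 48.9, 43.3 and 41.6 CPM with 0 µM heme. Its log2 fold change was 1.77 ± 0.070 (SE, adjusted p = 9.33e-09), and FBS gave 20.8, 21.3 and 20.2 CPM. The third annotated gene of the sulfur and glutathione list, the gamma-glutamyl hydrolase AAEL000271, fell, with a mean of 30.5 ± 0.859 CPM with 10 µM heme and 41.8 ± 1.69 CPM with 0 µM heme (SD, n = 3 each). That call was lost in 7 of 20 alternative settings. The list thus had 2 members higher and 1 lower of 3 tested. These were 66.7% and 33.3%, against 5.30% and 27.1% of the sheet and 8.13% and 9.87% of all genes tested.

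AAEL014246 encodes a glucosyl/glucuronosyl transferase, of the family that attaches sugars to small molecules and makes them easier to excrete. It stood at 153, 179 and 191 CPM with 10 µM heme, against 7.59, 8.55 and 7.90 CPM with 0 µM heme and 2.58, 3.23 and 3.55 CPM with FBS, and rose 21.8-fold (log2 fold change 4.44 ± 0.10 SE, adjusted p = 2.40e-10). The other 2 annotated members of the family did not pass the test, with log2 fold changes of 0.19 for AAEL001816 and -0.26 for AAEL000687. The other 10 genes in the set of 12 largest rises carry no description in the annotation used here. AAEL010500 had 793, 824 and 875 CPM with 10 µM heme, against 46.7, 45.8 and 52.5 CPM with 0 µM heme. AAEL017302 had 171, 179 and 199 CPM with 10 µM heme, against 10.8, 10.4 and 10.9 CPM with 0 µM heme. Both were therefore abundant with heme and much scarcer without, with log2 fold changes of 4.10 ± 0.067 and 4.09 ± 0.070 (SE).

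A group of 3 genes was close to silent without heme. AAEL025356 had 31.4, 30.8 and 34.4 CPM with 10 µM heme, against 0.592, 0.518 and 1.24 CPM with 0 µM heme. AAEL014239 had 25.2, 24.3 and 25.4 CPM with 10 µM heme, against 0.309, 0.583 and 1.01 CPM with 0 µM heme. AAEL017320 had 25.3, 28.2 and 33.0 CPM with 10 µM heme, against 0.849, 0.842 and 1.32 CPM with 0 µM heme. In each the 0 µM libraries stayed near or under 1 CPM, and the log2 fold changes were 5.35, 5.31 and 4.84, with SEs of 0.24, 0.36 and 0.40. The remaining 5 genes, AAEL000021, AAEL025532, AAEL020162, AAEL013042 and AAEL020632, averaged 33.4, 46.4, 26.6, 75.3 and 47.2 CPM with 10 µM heme and 1.82, 2.79, 1.71, 4.91 and 3.23 CPM with 0 µM heme. The mean with FBS was below that with 10 µM heme in all 12. They were chosen for high levels with heme, so this is a description.

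**Figure D3:**
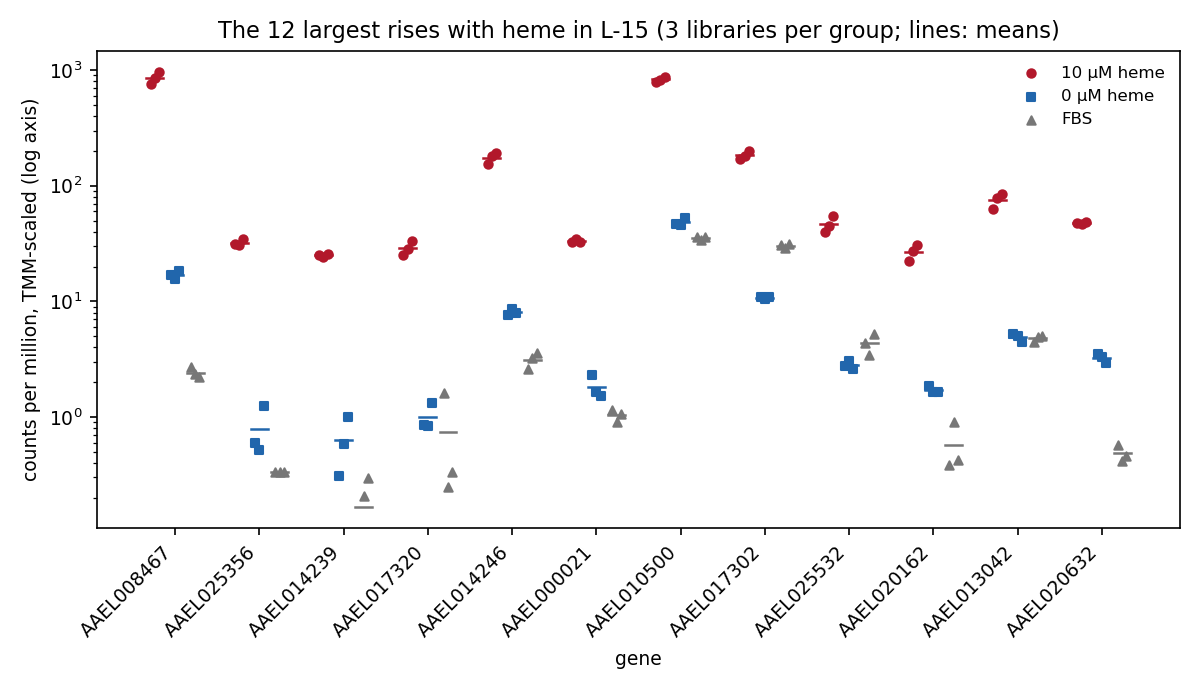
Level in CPM (log axis) of the 12 genes with the largest rise, with 1 point per library and a line at each group's mean, for 10 µM heme, 0 µM heme and FBS. The cysteine synthase AAEL008467 averages 854 CPM with 10 µM heme, 16.8 CPM with 0 µM heme and 2.41 CPM with FBS. The genes were chosen among those whose heme and 0 µM libraries do not overlap. The 1 FBS library of AAEL014239 at 0 CPM is not drawn.

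Some rises involved very abundant transcripts. AAEL007383 stood at 6735, 7812 and 7650.4 CPM with 10 µM heme, against 694, 642 and 689 CPM with 0 µM heme and 647, 544 and 504 CPM with FBS. AAEL007385 stood at 3251, 3720.5 and 3667 CPM with 10 µM heme, against 506, 486 and 498 CPM with 0 µM heme and 511, 489.6 and 491 CPM with FBS. These 2 genes rose 10.96-fold and 7.14-fold, and their 0 µM levels lay near those with FBS. AAEL002886 rose less, to 902 ± 89.3 CPM with 10 µM heme, against 266 ± 7.40 CPM with 0 µM heme and 504 ± 23.3 CPM with FBS (SD, n = 3 each). The annotation used here describes none of the 3 genes.

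Among genes that averaged 10 CPM or more, the largest falls were smaller. AAEL005288 (chromosome 3, bases 308542650 to 308543574 of AaegL5) had 3.19, 2.43 and 2.14 CPM with 10 µM heme, against 22.5, 22.6 and 19.5 CPM with 0 µM heme and 25.0, 25.2 and 27.2 CPM with FBS. It fell 8.28-fold (log2 fold change -3.05 ± 0.14 SE, adjusted p = 2.71e-08) and lay below both other groups. The 1 gene of the 12 largest falls with a described function was AAEL006880, Rab32 (chromosome 2, bases 24476498 to 24544898 of AaegL5). Rab32 is a small GTPase that in mammals and flies directs traffic to lysosome-related organelles. It had 27.0, 19.0 and 18.1 CPM with 10 µM heme, against 108, 106 and 110.1 CPM with 0 µM heme and 35.6, 32.1 and 37.7 CPM with FBS, so the highest of the 3 groups was the one without heme and serum.

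AAEL019868 was the most abundant of the 12, with 84.6, 50.3 and 51.5 CPM with 10 µM heme, against 293, 329.7 and 314 CPM with 0 µM heme. AAEL014556 had 37.8, 26.0 and 23.8 CPM with 10 µM heme, against 185, 194 and 188 CPM with 0 µM heme. AAEL000845 had 34.3, 19.8 and 22.8 CPM with 10 µM heme, against 138, 149.6 and 146 CPM with 0 µM heme. All 3 lost most of their transcripts, with log2 fold changes of -2.33, -2.69 and -2.49. The other 7, AAEL000636, AAEL021180, AAEL010132, AAEL012853, AAEL007892, AAEL003413 and AAEL011305, had log2 fold changes of -2.85, -2.74, -2.61, -2.45, -2.32, -2.24 and -2.20, with SEs from 0.10 to 0.28. In all 12 the mean with FBS lay above that with 10 µM heme. They were chosen for low levels with heme, so this is a description. Replicate 1 of the 10 µM group was the heme library nearest to the 0 µM libraries in all 12 falls and in 8 of the 12 rises, and without it 816 genes were called higher and 1148 lower. The counts moved further without replicate 2 (699 higher and 793 lower) or replicate 3 (681 and 813).

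**Figure D4:**
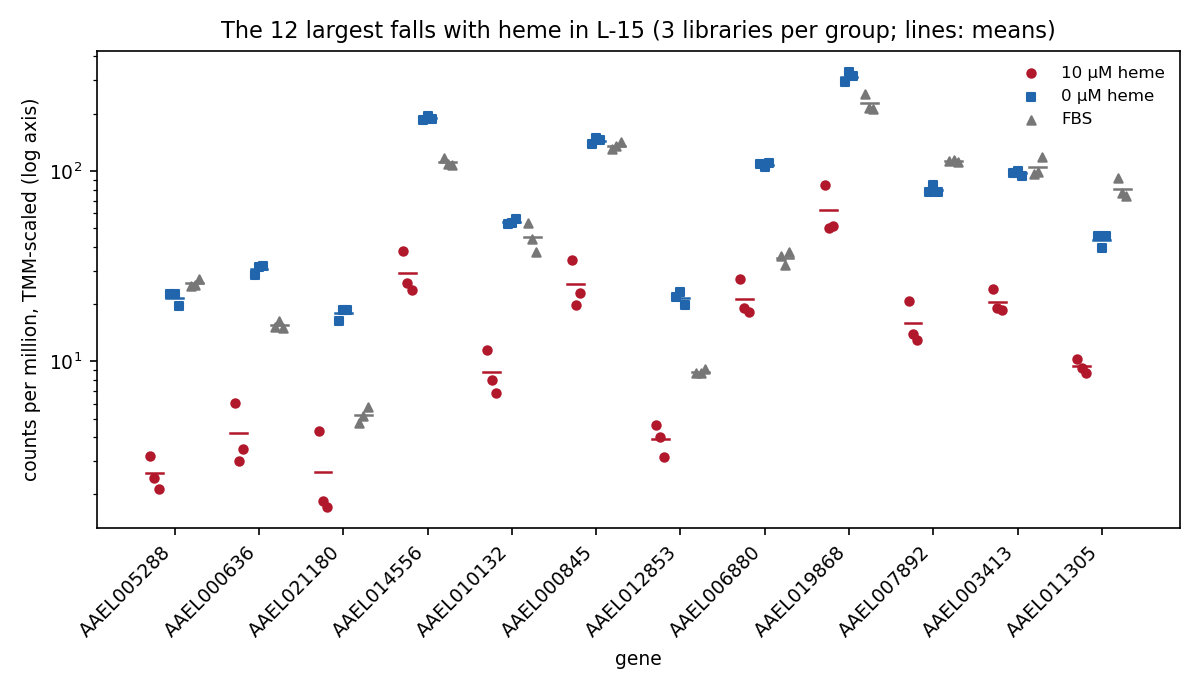
Level in CPM (log axis) of the 12 genes with the largest fall, with 1 point per library and a line at each group's mean, for 10 µM heme, 0 µM heme and FBS. AAEL019868 averages 62.2 CPM with 10 µM heme and 312 CPM with 0 µM heme, and the mean with 10 µM heme is the lowest of the 3 groups in each gene. The genes were chosen for their fall with heme, among those whose heme and 0 µM libraries do not overlap.

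At 500 CPM or more on average, the largest falls were those of AAEL008658, AAEL008652 and AAEL007778. AAEL008658 had 531, 409.9 and 395 CPM with 10 µM heme, against 1437, 1467 and 1520.3 CPM with 0 µM heme and 2473, 2189 and 2368 CPM with FBS. AAEL008652 had 639, 519 and 497 CPM with 10 µM heme, against 1602, 1620.0 and 1674 CPM with 0 µM heme and 2503, 2221 and 2399 CPM with FBS. In both genes the heme libraries were the lowest and the FBS libraries the highest. AAEL007778 averaged 382 ± 25.9 CPM with 10 µM heme, 979.7 ± 27.5 CPM with 0 µM heme and 809 ± 42.4 CPM with FBS (SD, n = 3 each).

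Of the 4 genes in the list for heme synthesis, breakdown and export, 1 fell and the other 3 did not pass. The share lower was 25%, against 27.1% of the sheet and 9.87% of all genes tested. The median log2 fold change over the 4 was 0.26. Lists were drawn by name, which placed protoheme IX farnesyltransferase (AAEL001479) under fatty acid and sterol synthesis. It did not pass either, with a log2 fold change of 0.08 (adjusted p = 0.148). Porphobilinogen synthase, AAEL002304 (chromosome 3, bases 375635228 to 375648627 of AaegL5), joins aminolevulinic acid molecules into the first ring of heme, and it was the one member of 4 in the heme list that passed the test. It had 40.5, 39.1 and 37.7 CPM with 10 µM heme, against 71.6, 72.7 and 66.4 CPM with 0 µM heme, and fell 1.79-fold (adjusted p = 1.81e-07). The enzyme before it, 5-aminolevulinic acid synthase (AAEL007787), had a log2 fold change of 0.33 (adjusted p = 0.00205), and coproporphyrinogen oxidase (AAEL013389), a later enzyme, one of 0.20 (adjusted p = 0.071), so neither passed. The fourth member was AAEL000434, which the study describes as the orthologue of ABCB10 of ticks, a heme transporter in those animals. It had 29.8, 27.5 and 29.7 CPM with 10 µM heme, against 21.6, 20.6 and 20.0 CPM with 0 µM heme, and its log2 fold change of 0.48 ± 0.098 (SE) did not pass (adjusted p = 0.00142).

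AAEL014762, a metal transporter of the ZIP family that the study describes as an iron transporter, rose. It had 674, 661 and 709.9 CPM with 10 µM heme, against 231, 227 and 237 CPM with 0 µM heme and 109.9, 115 and 124 CPM with FBS, a 2.94-fold difference (log2 fold change 1.56 ± 0.052 SE, adjusted p = 4.27e-09). Transferrin (AAEL011641), which binds iron in the hemolymph, did not pass, with 44.1 ± 2.70 CPM with 10 µM heme and 49.1 ± 3.64 CPM with 0 µM heme (SD, n = 3 each). The glutamate receptor AAEL009813 rose, to 73.1 ± 6.23 CPM with 10 µM heme, against 37.8 ± 0.678 CPM with 0 µM heme, and the organic cation transporter AAEL009206 fell, to 147 ± 7.78 CPM with 10 µM heme, against 225 ± 6.85 CPM with 0 µM heme (SD, n = 3 each). AAEL000242, which has no described function, averaged 7.20 ± 1.62 CPM with 10 µM heme and 3.04 ± 0.334 CPM with 0 µM heme. It did not pass by the quasi-likelihood test (SD, n = 3 each, adjusted p = 0.00391). The study, with edgeR's exact test on this L-15 experiment, had listed it as a transporter candidate with the expression pattern of an exporter.

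ABC transporters, which pump substrates across membranes with the energy of ATP, were listed by name. They gave 1 member higher and 1 lower of 7 tested (14.3% each), with a median log2 fold change of -0.17. The sheet had 5.30% higher and 27.1% lower. The 2 that passed lie close to each other on chromosome 2 and moved in opposite directions. AAEL008624 (chromosome 2, bases 455615233 to 455650540 of AaegL5) had 19.4, 21.3 and 22.9 CPM with 10 µM heme, against 6.15, 4.47 and 4.57 CPM with 0 µM heme. AAEL008632 (chromosome 2, bases 455591457 to 455609699) had 20.9, 21.6 and 21.6 CPM with 10 µM heme, against 49.8, 39.1 and 42.2 CPM with 0 µM heme. The first rose 4.17-fold and the second fell 2.04-fold. The most abundant, AAEL005918, had 482 ± 0.588 CPM with 10 µM heme and 548 ± 4.73 CPM with 0 µM heme and did not pass (SD, n = 3 each, adjusted p = 0.00107). The names used did not match ATP-dependent bile acid permeases, so the count of 7 leaves these out. Of them, AAEL005045 rose 4.69-fold and passed. AAEL005043, at a mean of 1.62 CPM with 10 µM heme, had a log2 fold change of 3.37 and did not pass (adjusted p = 0.000317).

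Carriers of sugars, monocarboxylates and amino acids had 2 members higher (8.70%) and 7 lower (30.4%) of 23 tested, with a median log2 fold change of -0.16. Their share of falls lay near the 27.1% of the sheet they come from, so the list did not stand apart from it. The monocarboxylate transporter AAEL003524 fell 2.13-fold, to 54.9 ± 4.13 CPM with 10 µM heme, against 117 ± 3.38 CPM with 0 µM heme (SD, n = 3 each). The sugar transporter AAEL012443 rose 2.08-fold, to 26.7 ± 1.56 CPM with 10 µM heme, against 12.8 ± 0.956 CPM with 0 µM heme (SD, n = 3 each). The cationic amino acid transporter AAEL008406 fell, with a log2 fold change of -0.78 ± 0.076 (SE). So did the most abundant carrier of the list, AAEL005213, whose log2 fold change was -0.62 ± 0.086, though its call was lost in 10 of 20 alternative settings.

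Of 8 annotated genes of DNA replication and the cell cycle, 6 were lower (75%, against 27.1% of the sheet and 9.87% of all genes tested) and the other 2 did not pass. Their median log2 fold change was -0.62, against -0.24 in the sheet and 0.02 over all genes tested. MCM2, MCM3, MCM5 and MCM7 are subunits of the helicase that opens DNA before it is copied. MCM2 (AAEL007007) had 53.7, 50.2 and 49.1 CPM with 10 µM heme, against 102, 91.1 and 94.9 CPM with 0 µM heme and 120.2, 132 and 135 CPM with FBS. MCM7 (AAEL000999) had 49.1, 44.5 and 42.9 CPM with 10 µM heme, against 83.9, 81.6 and 85.3 CPM with 0 µM heme and 157, 156 and 175 CPM with FBS. Both were highest in serum, lower without it and lower again with heme. MCM3 (AAEL011811) fell to 23.4 ± 0.721 CPM with 10 µM heme, against 38.4 ± 2.61 CPM with 0 µM heme, and MCM5 (AAEL002810) to 11.9 ± 0.394 CPM with 10 µM heme, against 21.8 ± 0.637 CPM with 0 µM heme (SD, n = 3 each). The small chain of ribonucleotide reductase (AAEL010691), which makes the building blocks of DNA, had a log2 fold change of -0.42 ± 0.054 (SE), and a subunit of replication protein A (AAEL014250), which coats single-stranded DNA, one of -0.53. A second ribonucleoside-diphosphate reductase, AAEL023255, had 49.4, 23.01 and 22.7 CPM with 10 µM heme, against 22.4, 22.7 and 22.6 CPM with 0 µM heme. Only replicate 1 of the heme group stood above the rest, and its log2 fold change of 0.50 did not pass (adjusted p = 0.099). The cyclin-dependent kinase regulatory subunit AAEL005232 had a log2 fold change of -0.32 (adjusted p = 0.101). Scaling by library size alone left 3 of the 6 calls and a median of -0.48, and leaving out any 1 library of the 2 groups compared left 3.

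Cytosolic ribosomal proteins gave 9 members lower (31.0%) and 1 higher (3.45%) of 29 tested, with a median log2 fold change of -0.30, and 28 of the 29 had a negative value. These shares and this median lay near those of the sheet, at 27.1%, 5.30% and -0.24. RpS26 (AAEL002832) fell the most of them, to 895 ± 7.24 CPM with 10 µM heme, against 1273 ± 23.8 CPM with 0 µM heme and 2526 ± 30.3 CPM with FBS (SD, n = 3 each). RpL30 (AAEL005220) was the exception, with a log2 fold change of 0.40. The changes were small and depended on the scaling: by library size alone the list had 1 member lower and 1 higher, with a median of -0.15, and without 0 µM replicate 2 it had 2 lower. Aminoacyl-tRNA synthetases, which load amino acids on tRNAs, had 3 members lower of 15 tested (20%, against 27.1% of the sheet), the other 12 not passing, with a median log2 fold change of -0.18. They were the enzymes for alanine (AAEL001218, -0.44), arginine (AAEL000199, -0.40) and aspartate (AAEL002748, -0.40), and by library size alone the list had 1 lower and 1 higher.

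Cytochrome P450s, heme-containing oxidases, gave 1 member higher (12.5%) and 2 lower (25%) of 8 tested, with a median log2 fold change of 0.08. The sheet had 5.30% higher and 27.1% lower. CYP307A1 (AAEL009762), which belongs to the family that acts early in ecdysone synthesis in insects, had 63.4, 54.5 and 51.1 CPM with 10 µM heme, against 134, 145 and 137 CPM with 0 µM heme and 20.2, 15.1 and 17.9 CPM with FBS. It fell 2.46-fold with heme, and its 0 µM level was the highest of the 3 groups. CYP9J2 (AAEL006805) rose to 60.2 ± 2.99 CPM with 10 µM heme, against 35.0 ± 2.03 CPM with 0 µM heme, and CYP9AE1 (AAEL003748) fell to 92.8 ± 2.08 CPM with 10 µM heme, against 136 ± 2.34 CPM with 0 µM heme (SD, n = 3 each).

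The heat shock and chaperone list, drawn by name, had 1 member higher (AAEL011708, log2 fold change 0.46) and 3 lower of 8 tested. These were 12.5% and 37.5%, against 5.30% and 27.1% of the sheet, and the median log2 fold change was -0.28. The lower members were a putative heat shock protein (AAEL001052), a heat shock factor binding protein (AAEL010546) and an Hsp70-interacting protein (AAEL012588). The higher call was lost when any 1 of 5 libraries was left out, and the 3 lower calls were lost with scaling by library size alone. The most abundant, the DNAj chaperone AAEL005165, averaged 866 ± 27.5 CPM with 10 µM heme and 866 ± 11.4 CPM with 0 µM heme (SD, n = 3 each). The names used did not match the lethal(2)essential for life protein l2efl (AAEL013338), so the count of 8 leaves it out. It fell 2.14-fold and passed. Among 3 antioxidant enzymes, thioredoxin peroxidase TPX4 (AAEL002309), which reduces peroxides, fell to 54.6 ± 0.700 CPM with 10 µM heme, against 88.4 ± 6.40 CPM with 0 µM heme (SD, n = 3 each). The other 2 did not pass, and the median log2 fold change of the 3 was -0.48. The share lower was 33.3%, against 27.1% of the sheet and 9.87% of all genes tested. Of 6 lysosome and autophagy genes tested, 2 fell (33.3%, against 27.1% of the sheet). They were the cathepsin L AAEL006389 (-0.88) and a Niemann-Pick type C-2 protein (AAEL006854, -0.40), whose call was lost in 7 of 20 alternative settings. The median log2 fold change of the 6 was -0.23. The most abundant, the cathepsin L AAEL002833, averaged 2363 ± 57.3 CPM with 10 µM heme and 2873 ± 53.2 CPM with 0 µM heme and did not pass (SD, n = 3 each). The one annotated caspase, CASPS19 (AAEL003444), of the protease family that carries out apoptosis, fell to 3.41, 4.94 and 3.37 CPM with 10 µM heme, against 14.6, 15.4 and 16.2 CPM with 0 µM heme. The one annotated proteasome subunit, Prosalpha2 (AAEL006061), rose with a log2 fold change of 0.53, a call that was lost when any of 7 single libraries was left out. Both genes matched to the midgut marker list, by name alone, fell. They were the trypsin AAEL002273 (-0.59) and the glutamate carboxypeptidase AAEL001588 (-0.50), with calls lost in 9 and 10 of 20 alternative settings.

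No member passed in 11 further lists with 30 members in all, by edgeR's quasi-likelihood test: iron storage, protein folding in the endoplasmic reticulum, mitochondrial ribosomal proteins, oxidative phosphorylation, glycolysis, fatty acid and sterol synthesis, zinc and copper transport, antimicrobial peptides, Toll, IMD and JAK-STAT signalling, and markers of hemocytes and of muscle. These lists were grouped because no member passed, so the absence of calls was fixed by that choice. Among all genes tested 8.13% were higher and 9.87% lower, and in the sheet 5.30% and 27.1%. Of the 30, 14 had an unadjusted p under 0.05, 3 passed in edgeR's exact test and 6 in DESeq2. Of all 13990 genes tested, 8026 passed at an FDR of 0.05. Only 1 gene each stood for iron storage, zinc and copper transport, antimicrobial peptides, Toll, IMD and JAK-STAT signalling, and muscle. Protein folding in the endoplasmic reticulum had 2, so such lists do not stand for whole pathways. The oxidative phosphorylation list also held vacuolar ATP synthase subunits (AAEL006516 and AAEL010819). L-lactate dehydrogenase (AAEL012014), which turns pyruvate into lactate, had 3102, 3011 and 2922 CPM with 10 µM heme, against 2033, 2016 and 1989.7 CPM with 0 µM heme and 1393, 844 and 619 CPM with FBS. Its first 2 groups lay apart but it did not pass (adjusted p = 0.0337). The shortened sheet held no member for glutathione S-transferases or for markers of neurons, fat body and germ line, so these were not examined.

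The study drew up 40 candidate transporters from midguts treated with heme and tested 9 of the genes by RNA interference in Aag2 cells. Of the 40, 35 were tested here, and 7 were higher (20%, against 8.13% of all genes tested) and 9 lower (25.7%, against 9.87%), with a median log2 fold change of 0.07. At an average of 5 CPM or more, the candidates that moved most were the unnamed AAEL021284, with 13.0, 11.2 and 13.1 CPM with 10 µM heme against 1.16, 1.198 and 1.58 CPM with 0 µM heme, and AAEL019869, with 106, 68.0 and 72.5 CPM with 10 µM heme against 315, 351 and 336 CPM with 0 µM heme. The first rose and the second fell, with groups that did not overlap, as held for every called gene.

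Of the 9 genes of the RNA interference screen, 1 was higher and 5 were lower. These were 11.1% and 55.6%, against 8.13% and 9.87% of all genes tested. The study picked these 9 partly on its cultured-cell libraries, so the count is not independent evidence. The primer pairs that the study used to measure 3 of them by RT-qPCR are shown because they fix which transcripts were assayed outside sequencing. They are written 5′ to 3′, with the 5 bases at the 3′ end, where extension starts, in capitals.
AAEL003619 forward: actgaagtctggtacGAGGC
AAEL003619 reverse: ggagaagctgttgaaCGAGG
AAEL008664 forward: gacattggcccgtgTGTTG
AAEL008664 reverse: aagcattacgatcggAACCC
AAEL012440 forward: ggtgagttcaacgtaTCGGG
AAEL012440 reverse: cgtgaacaccttgtcGATGA

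AAEL003619 (chromosome 3, bases 301265516 to 301313082 of AaegL5), a sodium and chloride dependent amino acid transporter, had 8.70, 7.45 and 6.79 CPM with 10 µM heme, against 26.5, 22.6 and 27.3 CPM with 0 µM heme and 8.95, 9.07 and 8.32 CPM with FBS. It fell 3.33-fold with heme (log2 fold change -1.73 ± 0.12 SE, adjusted p = 4.23e-07), and only the 0 µM libraries stood high. AAEL008664, which has no described function, had 331, 348 and 348 CPM with 10 µM heme, against 157, 154 and 154 CPM with 0 µM heme, and rose 2.21-fold (adjusted p = 5.54e-09). The sodium-bile acid cotransporter AAEL012440 (chromosome 1, bases 213310413 to 213340554 of AaegL5) had 113, 104 and 98.5 CPM with 10 µM heme, against 167, 165 and 165 CPM with 0 µM heme, and fell 1.58-fold (adjusted p = 3.07e-06). AAEL001495, with no described function, fell to 78.4 ± 4.54 CPM with 10 µM heme, against 143 ± 3.22 CPM with 0 µM heme, and the cationic amino acid transporter AAEL002557 to 61.7 ± 6.09 CPM with 10 µM heme, against 106 ± 4.07 CPM with 0 µM heme (SD, n = 3 each). The monocarboxylate transporter AAEL000417 fell too (-0.46 ± 0.050 SE), a call lost in 6 of 20 alternative settings. AAEL000461 (-0.32), the neurotransmitter gated ion channel AAEL004513 (0.58) and AAEL012226 (-0.12) did not pass.

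Beyond these, 35 annotated genes that averaged 5 CPM or more changed more than 2-fold, 8 upward and 27 downward, and were selected with their values in view. With those already named, 1.82% of the 768 tested genes that had a described function and this level rose more than 2-fold and 4.30% fell so, against 5.60% and 2.55% of all 9012 tested genes at this level, so falls outnumbered rises among described genes and not among all genes. The largest rise was that of AAEL008587, an ionotropic glutamate receptor of the NMDA type, with 37.4, 40.3 and 67.6 CPM with 10 µM heme, against 6.02, 4.70 and 5.32 CPM with 0 µM heme. The receptor GPRGHP3 (AAEL012796), of the growth hormone releasing hormone family, had 28.0, 33.8 and 37.3 CPM with 10 µM heme, against 4.76, 5.70 and 6.03 CPM with 0 µM heme. The bile acid permease AAEL005045 had 8.03, 9.88 and 8.55 CPM with 10 µM heme, against 1.47, 2.17 and 2.01 CPM with 0 µM heme. All 3 are membrane proteins whose transcripts were scarce without heme.

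The genes that fell included 2 type I activin receptors, which phosphorylate Smad proteins, and a Smad. The activin receptor AAEL012125 had 129, 116 and 115 CPM with 10 µM heme, against 276, 259 and 262 CPM with 0 µM heme. A second activin receptor, AAEL009339, had 54.2, 51.6 and 47.1 CPM with 10 µM heme, against 123, 120.0 and 115 CPM with 0 µM heme. The Smad AAEL019466, a homolog of Mothers against decapentaplegic, had 183, 165 and 151 CPM with 10 µM heme, against 364, 377 and 369.8 CPM with 0 µM heme. The 3 fell 2.21-fold, 2.34-fold and 2.22-fold. With FBS they averaged 141 ± 22.9, 60.1 ± 10.2 and 308 ± 46.9 CPM (SD, n = 3 each). In the 2 receptors only the 0 µM libraries thus stood high, while the Smad with FBS lay between the other groups. The odorant binding protein OBP21 (AAEL005770) fell to 16.9 ± 2.49 CPM with 10 µM heme, against 76.3 ± 2.72 CPM with 0 µM heme, and 4EBP (AAEL001864), which holds back cap-dependent translation, to 249 ± 25.7 CPM with 10 µM heme, against 517 ± 4.17 CPM with 0 µM heme and 1065 ± 110.1 CPM with FBS (SD, n = 3 each). Gelsolin (AAEL006095), which severs actin filaments, averaged 332 ± 14.96 CPM with 10 µM heme, 704 ± 8.36 CPM with 0 µM heme and 1475 ± 57.1 CPM with FBS (SD, n = 3 each). Phosphoenolpyruvate carboxykinase (AAEL000006), an enzyme of glucose synthesis, had 9.08, 10.2 and 8.92 CPM with 10 µM heme, against 21.8, 22.3 and 18.8 CPM with 0 µM heme and 2.92, 2.20 and 1.56 CPM with FBS, so its level was highest in serum-free cells without heme.

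The response was set beside that of Aag2 cells in Schneider's medium at the same dose and time in one fit of 18 libraries, which tests the difference of the 2 responses. The difference passed in 1414 of 14332 genes tested (9.87%), 463 (3.23%) with the more positive response in L-15 and 951 (6.64%) with the more negative. Of the 2518 genes called in L-15, 912 were also called in Schneider's medium in the same direction and 82 in the opposite one. The share of all genes called in Schneider's medium is not given here, so these 2 counts are descriptions. Since the media were run as separate experiments, the medium and the experiment cannot be told apart.

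Of the 12 largest rises, 8 were also called upward in Schneider's medium, and the difference passed in 2 of the 12. Among all 2518 genes called in L-15, 912 were called there in the same direction. The 12 were chosen for the size of their change in L-15, so both counts are descriptions. The cysteine synthase AAEL008467 had log2 fold changes of 5.66 ± 0.099 in L-15 and 6.98 ± 0.46 in Schneider's medium (SE), a difference that did not pass (adjusted p = 0.0257). AAEL017302 rose more in L-15, by 4.09 against 2.01 on the log2 scale (difference 2.07 ± 0.10 SE, adjusted p = 1.46e-10). The iron transporter AAEL014762 and the cystinosin AAEL006113 rose less in L-15. Their log2 fold changes were 1.56 in L-15 against 3.70 in Schneider's medium for AAEL014762, and 1.77 against 3.03 for AAEL006113. The differences were -2.15 (adjusted p = 1.31e-08) and -1.27 (adjusted p = 5.91e-08).

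Of the 12 largest falls, 8 were also called downward in Schneider's medium, and the difference passed in 9. These genes were chosen for the size of their change in L-15, which the difference also uses, so the 9 is a description. AAEL019868 moved in opposite directions, with log2 fold changes of -2.33 in L-15 and 1.10 in Schneider's medium (difference -3.44 ± 0.19 SE, adjusted p = 3.14e-10). So did AAEL019869, with -2.02 in L-15 and 1.11 in Schneider's medium. CYP9J2 (AAEL006805) had the reverse pattern, with 0.78 in L-15 and -0.95 in Schneider's medium (difference 1.73 ± 0.091 SE), and the organic cation transporter AAEL009206 had -0.62 in L-15 and 1.13 in Schneider's medium. The Smad AAEL019466 changed by -1.15 in L-15 and by -0.11 in Schneider's medium (difference -1.05 ± 0.12 SE, adjusted p = 2.31e-06). The amino acid transporter AAEL003619 likewise had -1.73 in L-15 and -0.17 in Schneider's medium (difference -1.58 ± 0.25 SE, adjusted p = 7.72e-05).

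**Figure D5:**
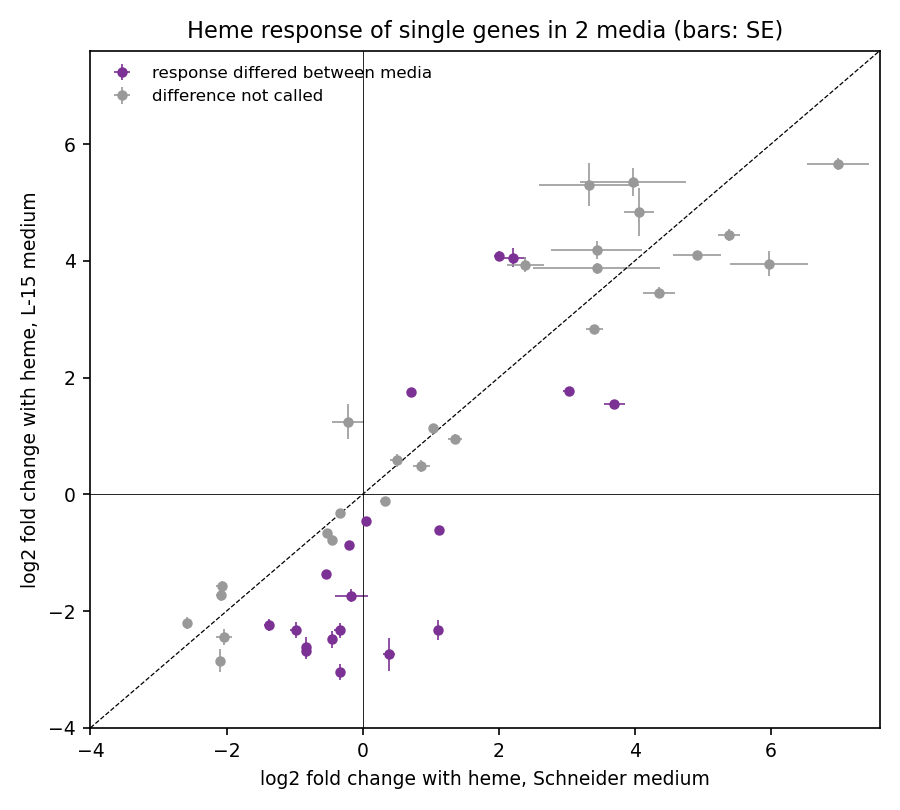
Log2 fold change of 10 µM over 0 µM heme in L-15 (y axis) against that in Schneider's medium (x axis), 1 point per gene with bars of 1 SE, for the largest and most abundant changes and the genes that the study names. The dashed line marks equal responses. AAEL019868 lies at -2.33 in L-15 and 1.10 in Schneider's medium, and the cysteine synthase AAEL008467 at 5.66 and 6.98.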

How the data were processed

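Poly(A) RNA was sequenced as paired-end reads. Per the study's methods, the authors aligned reads to AaegL5 with HISAT2 2.1.0, removed reads of mapping quality under 10 and counted reads per transcript with BEDtools 2.19.1. The deposited values are these raw counts per gene, and strand use is not given in the sources used here. The counts of the 9 L-15 libraries were fitted together in R 4.3.3 with edgeR 4.0.16 (filterByExpr, TMM, quasi-likelihood F test, Benjamini-Hochberg), with calls at an FDR of 0.0001, as in the study, whose own test was the exact test. CPM are TMM-scaled, except in sums over gene groups, which use total counts. The difference between media was fitted over 18 libraries.

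Libraries labelled as replicates are biological replicates per the study's methods. Their counts differed by more than sampling noise, at chi-square values of 7.63 to 24.4 for each degree of freedom. The libraries of 1 group are small in number, so p-values rest on a spread shared across groups.

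Genes named were the 12 largest rises and falls among called genes with a mean of at least 10 CPM and groups that do not overlap, the 3 in each direction with at least 500 CPM, up to 4 called members with at least 5 CPM and the most abundant member of each list, and 17 genes that the study names. Members and lists were chosen with earlier results of these data known. Gene names and positions came from the paper and a shortened copy of its supplementary sheet. The fits were tested on simulated data. DESeq2 1.42.0, other scalings and filters, a replicate block, thinning and leaving out each library were the alternatives.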

Additional observations from a re-analysis of the deposited data

Results flagged for a closer look

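The heme response of 46 of the 132 genes chosen by rule or named for a large annotated change differed between L-15 and Schneider's medium by the test of the difference (edgeR quasi-likelihood, adjusted p under 0.0001). That difference passed in 9.87% of all genes tested and in 768 (30.5%) of the 2518 genes called in L-15. Many of the 132 were chosen for their change in L-15, which the difference also uses, so the 46 is a description. Each value that follows is the log2 fold change in L-15 minus that in Schneider's medium. The media were separate experiments, so medium and experiment cannot be told apart, and no explanation was tested.

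The response was the more positive in L-15 for AAEL017302 (2.07), AAEL025532 (1.84), AAEL002886 (1.05), CYP9J2 AAEL006805 (1.73), the heat shock protein AAEL011708 (0.73), the sugar transporter AAEL012443 (0.86) and the leucine-rich transmembrane protein AAEL003408 (2.96). AAEL003408 had 11.2, 10.6 and 10.8 CPM with 10 µM heme, against 2.78, 3.85 and 3.59 CPM with 0 µM heme in L-15, and its log2 fold change was 1.67 in L-15 and -1.30 in Schneider's medium.

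Among the largest and most abundant falls the response was the more negative in L-15 for AAEL005288 (-2.72), AAEL021180 (-3.13), AAEL014556 (-1.87), AAEL010132 (-1.79), AAEL000845 (-2.05), Rab32 AAEL006880 (-2.01), AAEL019868 (-3.44), AAEL007892 (-1.35), AAEL003413 (-0.88) and AAEL007778 (-0.84). The transport genes with a more negative value were cystinosin AAEL006113 (-1.27), the iron transporter AAEL014762 (-2.15), AAEL009206 (-1.76), AAEL003524 (-1.25), AAEL000417 (-0.52), AAEL003619 (-1.58), the ABC transporter AAEL005918 (-0.70), the bile acid permease AAEL005045 (-1.998) and the chloride channel AAEL007547 (-1.10). Of the study's candidates with no described function, AAEL001495 (-0.68) and AAEL019869 (-3.14) were more negative as well.

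The enzymes and proteins of other lists with a more negative value were porphobilinogen synthase AAEL002304 (-0.70), TPX4 AAEL002309 (-0.98), ribosomal protein S27 AAEL022286 (-0.29), MCM2 AAEL007007 (-0.64), and the tRNA synthetases AAEL000199 (-0.55) and AAEL002748 (-0.57). The activin receptors AAEL009339 (-1.18) and AAEL012125 (-1.34) and the Smad AAEL019466 (-1.05) belong here too. So do OBP21 AAEL005770 (-1.81), a YTH domain protein AAEL005544 (-0.66), a multiprotein bridging factor AAEL008768 (-0.94) and l2efl AAEL013338 (-1.43). The rest were a purine synthesis enzyme AAEL012825 (-0.67), gelsolin AAEL006095 (-0.61), 4EBP AAEL001864 (-0.82), an oxidoreductase AAEL010677 (-0.76) and a fibrinogen and fibronectin protein AAEL011007 (-0.71).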

How the results depend on the processing

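The comparison of 10 µM with 0 µM heme was repeated under 20 alternatives and the difference between media under 26. The count of 2518 genes became 4294 with edgeR's exact test, 4635 with DESeq2 and 8026 at an FDR of 0.05. Higher and lower calls were 2130 and 2164 with the exact test, 1996 and 2639 with DESeq2, and 4070 and 3956 at an FDR of 0.05, and the 1015 genes over 2-fold became 1749, 1524 and 2471. By library size alone 820 genes were lower. With genes under a mean of 10 CPM left out, an alternative chosen after seeing the data, 740 genes were higher and 544 changed over 2-fold. Leaving out 1 library at a time gave 1492 to 2926 genes called, 670 to 1232 higher, 793 to 1694 lower and 695 to 1056 over 2-fold. Of single libraries, 10 µM replicates 2 and 3 (1492 and 1494 genes) and 0 µM replicates 1, 2 and 3 (1563, 1498 and 1577) moved the count by more than 1.5 times. The difference between media passed in 2263 genes with DESeq2, 4974 at an FDR of 0.05 and 1060 to 1603 with 1 library left out.

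Of the 97 genes named by rule, 65 kept their call under every alternative and none changed sign as a called gene. By library size alone 17 calls were lost. The replicate block gave 1853 genes, 1824 of them among the 2518, and 9 of the 97 named calls were lost. The numbers do not pair the libraries, since same-numbered deviations correlated at -0.083, 0.024 and 0.086 over 7533 genes. The cause of these changes was not tested. A search of promoters for motifs was not run. Depth limits scarce genes: of 2034 genes with a mean under 1 CPM, 17 were called.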
